A study of Mus musculus with 79 samples.

Results

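The Schwann cell (SC) fraction of the regenerating nerve bridge was compared between delayed and immediate repair 5 days after suture. All libraries labelled as SC, day 5, were taken, which gave 9 libraries after delayed repair and 7 after immediate repair, or 16 of the 79 libraries of the series. Of the 23361 genes listed, the 9604 with at least 5 CPM (counts of a gene scaled to a common library total) in 6 or more of the 16 libraries were tested.

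In the study, a freshly cut common peroneal nerve was sutured into the distal tibial stump of mice, across a silicone conduit, and the question was which expression differences go with a late repair. In the delayed group the tibial nerve had been transected and tied to the quadriceps muscle 8 weeks earlier, and in the immediate group only a sham incision had been made at that time. All mice carried GFP under the human S100β promoter, so the gate for SCs depended on where that transgene was active, and the cells were sorted as GFP+ and negative for F4/80, CD14, CD16/32, CD11b, a dump channel of other lineages and propidium iodide. Each library came from the bridge of 1 animal, with 1000 sorted cells and 1.5 ng of amplified cDNA as input, from 4 males and 5 females after delayed and 4 males and 3 females after immediate repair. The ages of the mice are not given in the sources used here.

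Schwann cells ensheath peripheral axons, and in an intact nerve they make myelin or wrap small axons. After a nerve is cut they lose their myelin programme, divide, and turn to a repair state in which they clear debris, secrete neurotrophic factors and chemokines, and line up as tracks for regrowing axons. Nerves that stay without axons for long are known to support regrowth less well.

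Library totals ran from 18433741 to 30796823 estimated counts. The number of genes at 5 CPM or more was lowest in immediate replicate 3, at 7610, and highest in immediate replicate 8, at 9751. The first principal component of the log CPM values (26.7% of the variance) set immediate replicate 3 apart, the second (16.8%) immediate replicate 1, and the fourth (7.72%) immediate replicate 4. The common biological coefficient of variation that edgeR fitted was 67.2% in these 16 libraries, against 55.6% in the 15 SC libraries of day 14 and 29.1% in the macrophage libraries of the same 16 animals. The libraries of one repair group therefore differed more from each other in the SC fraction than in macrophages. SC libraries started from 1.5 ng of cDNA and macrophage libraries from 4 ng, and differences between animals cannot be told apart from technical spread here.

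The label was first checked against marker genes. Transcripts of S100b, whose human promoter drives the GFP, were at 0, 0.493 and 8.10 CPM (lowest, median, highest) after delayed repair and at 0.630, 14.7 and 24.3 CPM after immediate repair. The SC transcription factor Sox10 was at 0, 10.1 and 78.0 CPM after delayed and 18.2, 62.3 and 158 CPM after immediate repair. Both genes were near 0 in the macrophage libraries of the same animals. A mean of log2(CPM + 1) over 24 SC marker genes was 1.18, 3.23 and 5.23 after delayed and 2.86, 4.84 and 5.31 after immediate repair, against medians of 1.02 and 0.996 in macrophages. All 16 libraries lay above the highest macrophage library, at 1.14, the lowest delayed one only just.

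Genes of dendritic cells had a high mean level in each of the 16 libraries. This mean, of log2(CPM + 1) over 25 such genes, was 8.16, 8.52 and 8.77 after delayed and 7.82, 8.48 and 8.85 after immediate repair, against a median of 3.83 in the macrophages of the delayed animals. Ccr7, the homing receptor of mature dendritic cells, had medians of 6653 CPM after delayed and 7877 CPM after immediate repair, and 20.7 CPM in macrophages. Flt3, the receptor that dendritic cell precursors need, had medians of 588 and 603 CPM. Other members were low, among them Itgax, which encodes CD11c, with a median of 31.7 CPM over the 16 libraries, Clec9a at 7.92 CPM, Ccl17 at 2.79 CPM and Xcr1, a marker of cross-presenting dendritic cells, at 9.19 CPM against 11.5 CPM in macrophages. The libraries are therefore called the SC fraction, as sorted, and not SCs. Of the 24 dendritic cell genes tested, 6 were higher and 18 lower in the delayed group, and their median log2 fold change was -0.13, with a range of -0.22 (without delayed replicate 1) to -0.04 (without immediate replicate 3).

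Macrophage genes, whose surface products the gate was set to leave out, varied most between libraries. The mean over 22 macrophage markers was 3.18, 6.15 and 8.07 after delayed and 2.42, 4.82 and 6.27 after immediate repair, against a median of 9.15 in the sorted macrophages. Emr1, which encodes F4/80, was at 5.35, 148 and 572 CPM after delayed and 0.260, 17.5 and 139 CPM after immediate repair. Of the lineages in the dump channel, T cell genes were mostly low, with Cd3e at 0 in 13 of 16 libraries, but Il7r, which that list also holds, was at 163 to 444 CPM. In the macrophages of the same animals Il7r was at 125 to 381 CPM. Fibroblasts were to be removed by the same channel, but their markers (16 genes) had a mean of 0.855, 2.56 and 4.90 after delayed and 2.20, 4.13 and 5.21 after immediate repair, near the level of the SC markers. The members differed widely. Medians over the 16 libraries were 194 CPM for Col1a1 and 247 CPM for Col1a2. They were 0.0442 CPM for Thy1, the antigen used to remove fibroblasts, 0.0589 CPM for Pdgfra and 0.0413 CPM for Lum. Slc2a1, also in the list, had a median of 89.8 CPM, against 388 CPM in macrophages. The collagen gene Col3a1 was at 14.1, 91.0 and 1864 CPM after delayed and 5.15, 408 and 5504 CPM after immediate repair, so the groups overlapped.

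**Figure D1:**
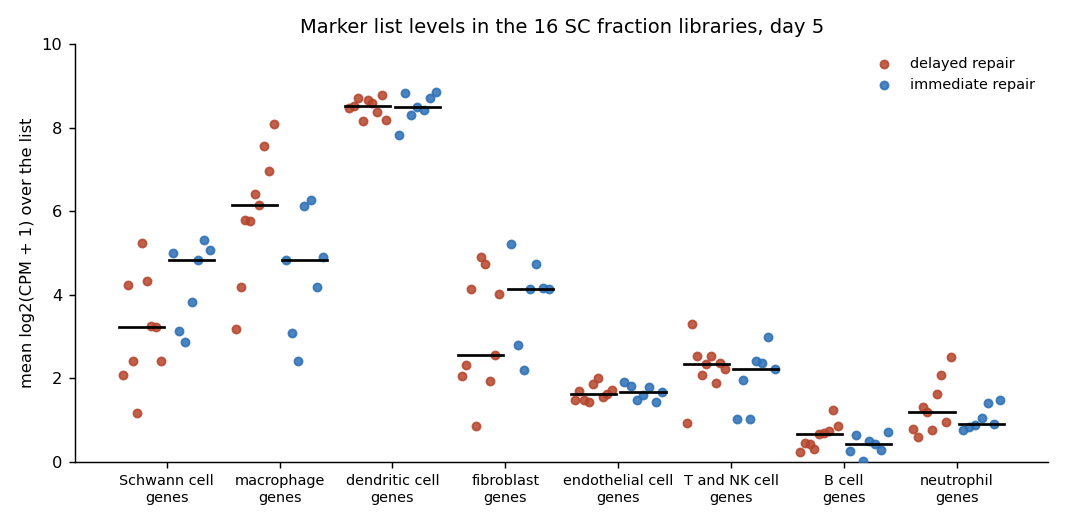
Each point is 1 of the 16 SC fraction libraries of day 5, the vertical axis is the mean of log2(CPM + 1) over the marker genes of a cell type, and black lines are medians of the delayed (n = 9) and immediate (n = 7) groups. Dendritic cell genes lie between 7.82 and 8.85 in all libraries, while SC and macrophage genes spread over several log2 units within each group.

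With the quasi-likelihood test of edgeR, 0 of 9604 genes (0%) differed between delayed and immediate repair at a Benjamini-Hochberg adjusted p under 0.05. An unadjusted p under 0.05 was found for 505 genes (5.26%), of which 192 were higher after delayed repair (2% of genes tested) and 313 lower (3.26%). DESeq2, with its own adjustment, called 14 genes (0.146%), 4 higher and 10 lower. By the sign of the fit, 4623 genes were higher and 4981 lower, and the median log2 fold change over all genes tested was -0.01. Without the libraries that stood apart, immediate replicates 1 and 3, edgeR again called 0 genes and 433 had an unadjusted p under 0.05.

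**Figure D2:**
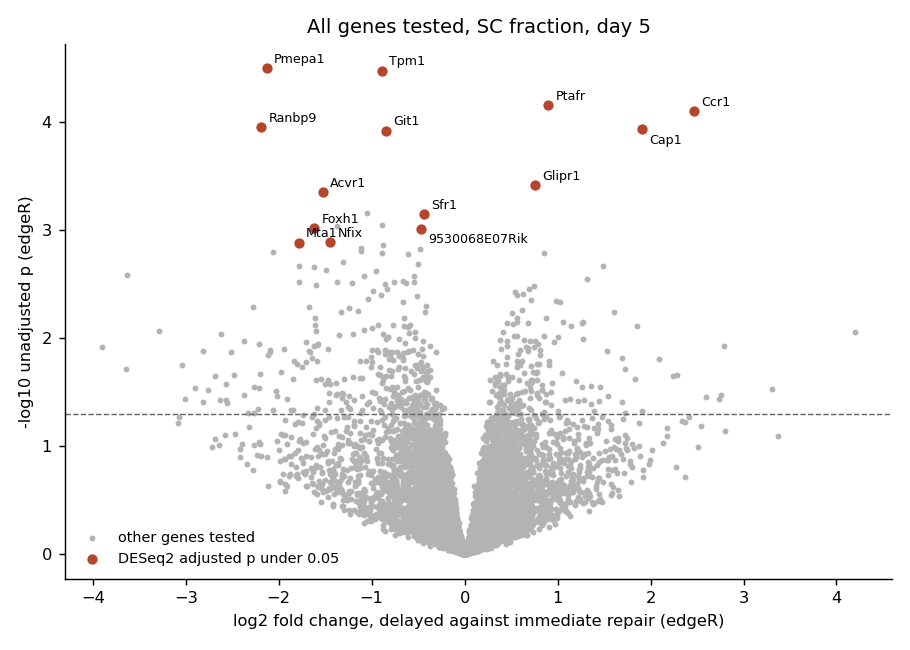
Each point is 1 of 9604 genes, with the log2 fold change of delayed against immediate repair on the horizontal axis and -log10 of the unadjusted edgeR p on the vertical axis. The dashed line marks the unadjusted threshold, and the named red points are the 14 genes that DESeq2 called, 10 of them on the lower side.

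In 4 genes (0.0416% of those tested) every delayed library lay on one side of every immediate library: Pmepa1 and Foxh1 were lower after delayed repair, and Ptafr and Rnf41 were higher. Foxh1 was below 5 CPM in all 9 delayed libraries and was tested only through the immediate ones, so its separation was set by the filter and supports nothing here, in this count or among the DESeq2 calls. Of the 4, Pmepa1, Foxh1 and Ptafr were among the 14 that DESeq2 called. The others that it called were Tpm1, Ranbp9, Git1, Acvr1, Sfr1, Nfix, Mta1 and 9530068E07Rik, all lower, and Ccr1, Cap1 and Glipr1, all higher.

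To show the regulatory sequence next to these genes, the RefSeq promoter table for GRCm38.p6 was searched for the 15 genes just named, and 12 had an entry. Foxh1, Glipr1 and Pmepa1 had none. The 250 bases before the annotated start are given, on the gene's strand, for the 4 genes that were higher after delayed repair and whose entry lies at the annotated start of the gene. Capitals mark GAGGAA, the core of the site bound by the myeloid factor PU.1, TGANTCA, the site of AP-1, and CAGAC, the box bound by SMAD proteins of the TGF-β pathway, on either strand (TTCCTC and GTCTG are the reverse forms, and TGANTCA is its own reverse), and no marked match overlaps another. The regions are chr4:132563817-132564066 (plus strand) for Ptafr, chr10:128411366-128411615 (plus) for Rnf41, chr9:123968693-123968942 (minus) for Ccr1 and chr4:122886077-122886326 (minus) for Cap1.
Ptafr: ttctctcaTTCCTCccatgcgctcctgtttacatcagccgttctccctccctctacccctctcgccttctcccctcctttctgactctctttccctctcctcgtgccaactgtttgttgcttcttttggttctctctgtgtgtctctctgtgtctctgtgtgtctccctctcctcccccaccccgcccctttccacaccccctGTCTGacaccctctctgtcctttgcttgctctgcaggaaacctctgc
Rnf41: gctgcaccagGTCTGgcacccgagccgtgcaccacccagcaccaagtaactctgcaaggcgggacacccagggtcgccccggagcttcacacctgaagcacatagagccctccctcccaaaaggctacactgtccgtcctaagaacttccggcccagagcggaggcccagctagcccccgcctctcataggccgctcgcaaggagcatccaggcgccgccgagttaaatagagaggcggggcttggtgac
Ccr1: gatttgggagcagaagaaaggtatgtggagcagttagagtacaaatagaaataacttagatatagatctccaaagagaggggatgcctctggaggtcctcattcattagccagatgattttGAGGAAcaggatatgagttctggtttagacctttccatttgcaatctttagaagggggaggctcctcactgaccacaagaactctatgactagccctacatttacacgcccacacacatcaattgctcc
Cap1: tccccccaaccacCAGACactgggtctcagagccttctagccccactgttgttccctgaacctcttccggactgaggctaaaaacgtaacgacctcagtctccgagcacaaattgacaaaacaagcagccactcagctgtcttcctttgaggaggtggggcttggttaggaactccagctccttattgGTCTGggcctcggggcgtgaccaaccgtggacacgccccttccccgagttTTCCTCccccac

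Over the 32851 promoters of the table, taken at the same 250 bases, 23.3% held GAGGAA, 42.2% held CAGAC and 6.75% held TGANTCA on either strand. The matches above are a description of these windows. They were not tested against the expression differences.

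The genes with lower levels after delayed repair are given first. Pmepa1 (chr2:173224458-173276731, GRCm38.p6) encodes a membrane protein that TGF-β induces and that restrains SMAD signaling. It was at 5.96, 18.8 and 26.4 CPM after delayed and 31.2, 87.2 and 113 CPM after immediate repair, so the highest delayed library lay below the lowest immediate one. Its log2 fold change was -2.13 (SE 0.38), with an adjusted p of 0.1603 in edgeR and 2.36e-04 in DESeq2. Acvr1, a type I receptor for activins and BMPs, was at 2.43, 5.85 and 14.5 CPM after delayed and 12.1, 16.8 and 28.2 CPM after immediate repair. The log2 fold change of Acvr1 was -1.52 (SE 0.35, adjusted p 0.474 in edgeR and 0.0125 in DESeq2), and the groups overlapped only through the highest delayed library. Foxh1 (chr15:76667829-76671614), a SMAD partner, was at 1.16, 2.98 and 4.23 CPM after delayed and 4.45, 8.03 and 16.9 CPM after immediate repair, with a log2 fold change of -1.62 (SE 0.41, adjusted p 0.622 in edgeR and 0.0115 in DESeq2).

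Tpm1, which encodes the tropomyosin that winds along actin filaments, was at 131, 165 and 256 CPM after delayed and 241, 283 and 448 CPM after immediate repair. Its log2 fold change of -0.89 (SE 0.16) had an adjusted p of 0.1603 in edgeR and 3.63e-04 in DESeq2. Git1, a scaffold of focal adhesions, was at 33.3, 39.5 and 66.0 CPM after delayed and 62.1, 73.7 and 120.1 CPM after immediate repair, a log2 fold change of -0.85 (SE 0.17). In both genes only the highest delayed library reached into the immediate range.

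Among nuclear and RNA-binding proteins, Ranbp9, a scaffold of a ubiquitin ligase complex, was at 6.46, 10.4 and 25.003 CPM after delayed and 15.5, 35.0 and 152 CPM after immediate repair. The log2 fold change of Ranbp9 was -2.19 (SE 0.44), and it was -1.17 without immediate replicates 1 and 3. Qk, whose RNA-binding protein is needed for myelin transcripts, was at 25.3, 52.6 and 163 CPM after delayed and 98.3, 182 and 329 CPM after immediate repair (log2 fold change -1.37, SE 0.34, adjusted p 0.622 in edgeR and 0.0556 in DESeq2). Lower levels were also seen for Nfix, a transcription factor of neural and muscle precursors (log2 fold change -1.45, SE 0.38), and for Mta1, a subunit of the NuRD complex (-1.78, SE 0.47), both at no more than 8.25 CPM in any delayed library. They reached 5 CPM in only 3 (Nfix) and 1 (Mta1) of 9 delayed libraries and passed the filter through the immediate group, so these differences support nothing either. Sfr1, a DNA repair factor, was at 73.2, 91.5 and 103 CPM after delayed and 102, 133 and 137 CPM after immediate repair, a log2 fold change of -0.44 (SE 0.11), so the difference was small but the spread was smaller.

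The genes with higher levels after delayed repair follow. Ptafr (chr4:132564067-132582683), the receptor of platelet-activating factor, was at 115, 154 and 215 CPM after delayed and 54.0, 84.1 and 109.8 CPM after immediate repair. For Ptafr the log2 fold change was 0.90 (SE 0.17), with an adjusted p of 0.164 in edgeR and 4.32e-04 in DESeq2, and the groups did not overlap. Ccr1 (chr9:123962126-123968692), a receptor for CCL3 and CCL5, was at 21.7, 84.5 and 289.7 CPM after delayed and 9.30, 21.2 and 35.8 CPM after immediate repair. Of the delayed libraries, 9 of 9 lay above the immediate mean.

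Cap1, which turns over actin filaments, was at 45.1, 232 and 297 CPM after delayed and 25.8, 52.0 and 94.3 CPM after immediate repair, with 7 of 9 delayed libraries above the immediate mean (log2 fold change 1.90, SE 0.38, adjusted p 0.164 in edgeR and 4.32e-04 in DESeq2). Delayed replicates 7 and 8 were at 48.2 and 45.1 CPM, within the immediate range, and the other 7 at 192 to 297 CPM. The delayed libraries thus held separate levels of Cap1 and not a graded spread. Glipr1, a secreted CAP-domain protein, was at 42.2, 82.1 and 101 CPM after delayed and 29.0, 50.4 and 56.4 CPM after immediate repair (0.76, SE 0.17). Delayed replicate 5 alone brought the groups of Glipr1 to overlap. Rnf41 (chr10:128411616-128441441), a ubiquitin ligase that lowers the level of the neuregulin receptor ErbB3, was at 43.6, 51.0 and 61.2 CPM after delayed and 9.49, 32.8 and 40.2 CPM after immediate repair. Its log2 fold change of 0.85 (SE 0.23) did not pass in either tool (adjusted p 0.634 in edgeR and 0.113 in DESeq2) although the groups did not overlap. Of the 12 higher genes with the smallest p, Atp6v1a (0.69, SE 0.20) and Atp6v1h (0.75, SE 0.22) encode subunits of the proton pump of lysosomes and Adam8 (0.54, SE 0.16) a metalloprotease of myeloid cells, and none passed in either tool.

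**Figure D3:**
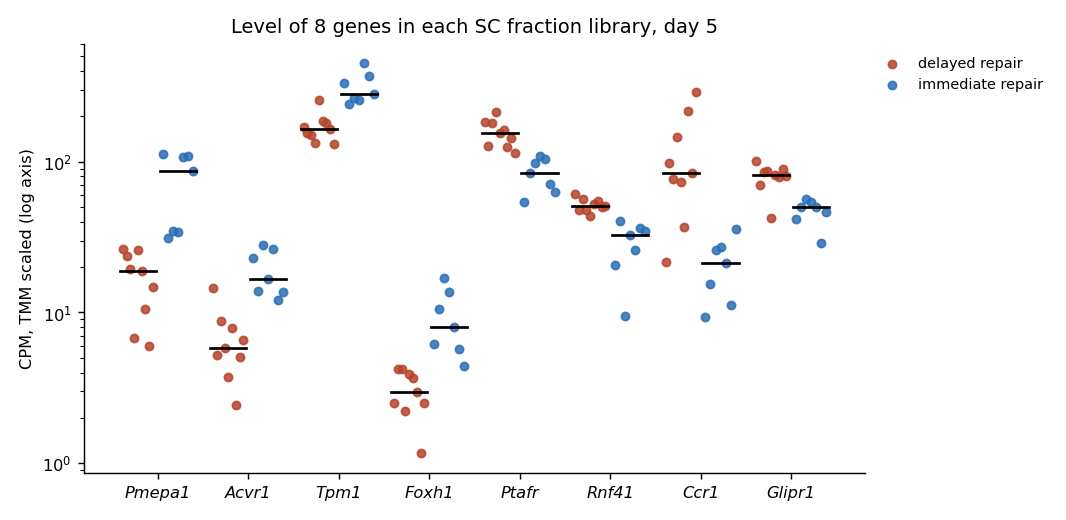
CPM of 8 genes in each library on a log axis, with delayed repair in red (n = 9), immediate repair in blue (n = 7) and medians as black lines. The 2 groups are fully apart for Pmepa1, Ptafr and Rnf41, and for Foxh1, whose separation the filter on low values set, and 1 delayed library brings those of Acvr1, Tpm1 and Glipr1 to overlap.

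Gene lists were described next by their counts and by the median log2 fold change of the members tested, beside -0.01 over all genes. Counts at an unadjusted p are read against 2% of all genes higher and 3.26% lower. Of the SC markers, 22 of 24 were tested, 3 were higher and 19 lower after delayed repair, and the median was -1.49. Of the 22, 9 reached 5 CPM in 4 or fewer of the 9 delayed libraries and passed the filter mainly through the immediate group, so the count and median are a description and support nothing. With no filter the median over all 24 SC markers was -1.40. None passed after adjustment with edgeR or DESeq2, 0 were higher and 7 lower at an unadjusted p under 0.05, and without immediate replicates 1 and 3 the median was -1.57 with 5 lower. S100b reached 5 CPM in only 2 of 9 delayed libraries and was tested through the immediate group, and its log2 fold change of -2.81 (SE 1.02) is given as a description. The same holds for Ngfr, the p75 neurotrophin receptor of repair SCs, which reached 5 CPM in 4 of 9 delayed libraries (-2.02, SE 0.88). The log2 fold change of Cryab, a small heat shock protein of SCs, was -1.68 (SE 0.52, edgeR adjusted p 0.799). In bulk libraries a smaller number of cells of a type and less RNA per cell cannot be told apart.

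The medians of the lists that hold SC genes had the same sign, and some members of these lists, too, passed the filter mainly through 1 group. Of the 30 myelin genes tested, 5 reached 5 CPM in 4 or fewer of the 9 delayed libraries, and of the 30 repair SC genes 4. In 3 or fewer of the 7 immediate libraries it was 1 and 2. The counts and medians of both lists are a description and support nothing. Myelin proteins and regulators had a median of -0.72 over 30 tested members (23 lower, 6 of them at an unadjusted p under 0.05 and 0 higher at that p). Without immediate replicates 1 and 3 there were 3 lower and 1 higher at that p, and the myelin median was -0.18 in males and -0.78 in females. For the repair SC programme the median was -0.45 over 30 members (22 lower, 6 at an unadjusted p under 0.05), and it was -0.28 without immediate replicate 1 or without immediate replicate 5. In it, Gdnf, a growth factor for motor neurons that denervated SCs release, was at 0, 5.93 and 18.3 CPM after delayed and 10.04, 38.1 and 58.0 CPM after immediate repair, a log2 fold change of -2.27 (SE 0.71, edgeR adjusted p 0.799). The intermediate filament gene Nes was at 0, 8.51 and 31.9 against 11.8, 58.1 and 108 CPM (-2.51, SE 0.91). In both genes 9 of 9 delayed libraries lay below the immediate mean while the ranges overlapped.

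Extracellular matrix genes had 47 of 54 tested members lower and a median of -0.75, with 1 higher and 5 lower at an unadjusted p under 0.05, beside 2% and 3.26% of all genes, and none after adjustment with either tool. Of the 54, 9 reached 5 CPM in 4 or fewer of the 9 delayed libraries, and 2 in 3 or fewer of the 7 immediate ones. The matrix count and median are therefore a description and support nothing. The matrix median was -0.45 without immediate replicate 1 and -1.10 without delayed replicate 6. Dag1, which encodes the dystroglycan that anchors SCs to laminin, was at 27.9, 79.4 and 255 CPM after delayed and 25.8, 319 and 765 CPM after immediate repair (-1.55, SE 0.63). Neurotrophic factors and their receptors had a median of -0.45 over 18 members (-0.73 without delayed replicate 5). The same limit holds, since 4 of the 18 reached 5 CPM in 4 or fewer of the 9 delayed libraries. At an unadjusted p 1 was higher and 4 lower, but 3 were higher and 2 lower without immediate replicates 1 and 3. The higher one in the full set was Areg, an EGF receptor ligand, at 37.4, 56.1 and 126 CPM after delayed and 10.2, 38.9 and 48.7 CPM after immediate repair (1.02, SE 0.31). Il6st, the shared receptor subunit of the IL-6 family, was at 101, 160.5 and 188 CPM against 159.8, 211 and 283 CPM (-0.45, SE 0.16). The SC and fibroblast marker levels given above were lower at the median after delayed repair too. The median log2 fold change of the fibroblast markers was -0.67, but 0.26 without immediate replicate 1. The part of both marker lists in the differences of these gene lists was not tested.

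Macrophage markers had the opposite sign, with 19 of 20 tested members higher, a median of 1.36 and 3 higher at an unadjusted p under 0.05. Without immediate replicates 1 and 3 the median was 1.03, and without delayed replicate 9 it was 0.89. Csf1r, the receptor that macrophages need to survive, was at 48.9, 170.2 and 674 CPM after delayed and 0.130, 50.5 and 119 CPM after immediate repair (2.24, SE 0.89), and Itgam, which encodes CD11b, was at 29.7, 127 and 455 against 22.2, 52.2 and 86.7 CPM (1.61, SE 0.51, edgeR adjusted p 0.807). The median over the list was 0.22 within males (4 and 4 libraries) and 1.76 within females (5 and 3). For the SC markers these medians were -0.81 in males and -1.72 in females.

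Lists of inflammation and clearance differed among themselves. Inflammatory cytokines had a median of 0.07 (26 members, 0 higher and 0 lower at an unadjusted p). This median was -0.01 in males and 0.55 in females, and 2 members were higher and 1 lower at that p without immediate replicates 1 and 3. Chemokine receptors had a median of 0.10 (12 members, 1 higher). That median was 0.42 in males and -0.10 in females, and ran from -0.06 to 0.33 with 1 library left out. Lysosome and phagocytosis genes had 37 of 41 members higher, a median of 0.47, and 6 higher and 0 lower at an unadjusted p under 0.05, of which 1 was left without immediate replicates 1 and 3, where the median was 0.29. Gusb, a lysosomal glucuronidase, was at 58.9, 119 and 162 CPM after delayed and 18.7, 71.4 and 115 CPM after immediate repair (0.78, SE 0.32). Chemokines had a median of 0.51 over 22 members with 5 higher and 1 lower at an unadjusted p, and 1 and 1 without these libraries. The chemokine median was 0.14 in males and 1.10 in females, and ran from 0.33 (without immediate replicate 8) to 0.98 (without immediate replicate 1) with 1 library left out. Ccl8, which draws monocytes, was at 2.65, 64.6 and 584 CPM against 2.66, 22.1 and 91.8 CPM (2.79, SE 0.99), and Cxcl14 was at 0, 6.68 and 11.5 CPM against 3.15, 9.40 and 166 CPM (-2.62, SE 0.89). Without immediate replicate 5, at 166 CPM, the value of Cxcl14 was -1.28. Innate receptors had a median of 0.50 (26 members, 0.31 without immediate replicate 3), and interferon response genes 0.18 (45 members, 4 higher at an unadjusted p, and 2 without immediate replicates 1 and 3), led by Ifi204 (1.31, SE 0.38), a sensor of DNA. The interferon median was -0.07 in males and 0.36 in females, and it was 0.29 without immediate replicate 2. The macrophage marker level was higher at the median in the same group, and its part in these differences was not tested.

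For some lists the median was close to that of all genes. Antigen presentation had a median of 0.01 (32 members), oxidative phosphorylation -0.01 (50), the cell cycle 0.03 (28) and cholesterol and fatty acid synthesis 0.05 (32). The cell cycle median was not stable, at -0.20 without immediate replicates 1 and 3, -0.32 without delayed replicate 5 and 0.26 without immediate replicate 5. Of the cytoplasmic ribosomal protein genes, 60 of 61 were lower, beside 4981 of 9604 over all genes, with a median of -0.21 and 4 lower at an unadjusted p, beside 3.26% of all genes. The median of this list was -0.12 and 0 of its genes had an unadjusted p under 0.05 without immediate replicates 1 and 3. In the hypoxia and glycolysis list (median 0.19, 40 members), Egln1, the oxygen sensor that marks HIF for degradation, was at 4.03, 8.89 and 19.3 CPM after delayed and 6.58, 19.1 and 84.2 CPM after immediate repair (-1.60, SE 0.47), and was -0.68 without those 2 libraries. Hmox1, the heme-degrading enzyme, was at 411, 996 and 1390 CPM against 129.6, 419.6 and 909 CPM (1.05, SE 0.41, edgeR adjusted p 0.884).

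**Figure D4:**
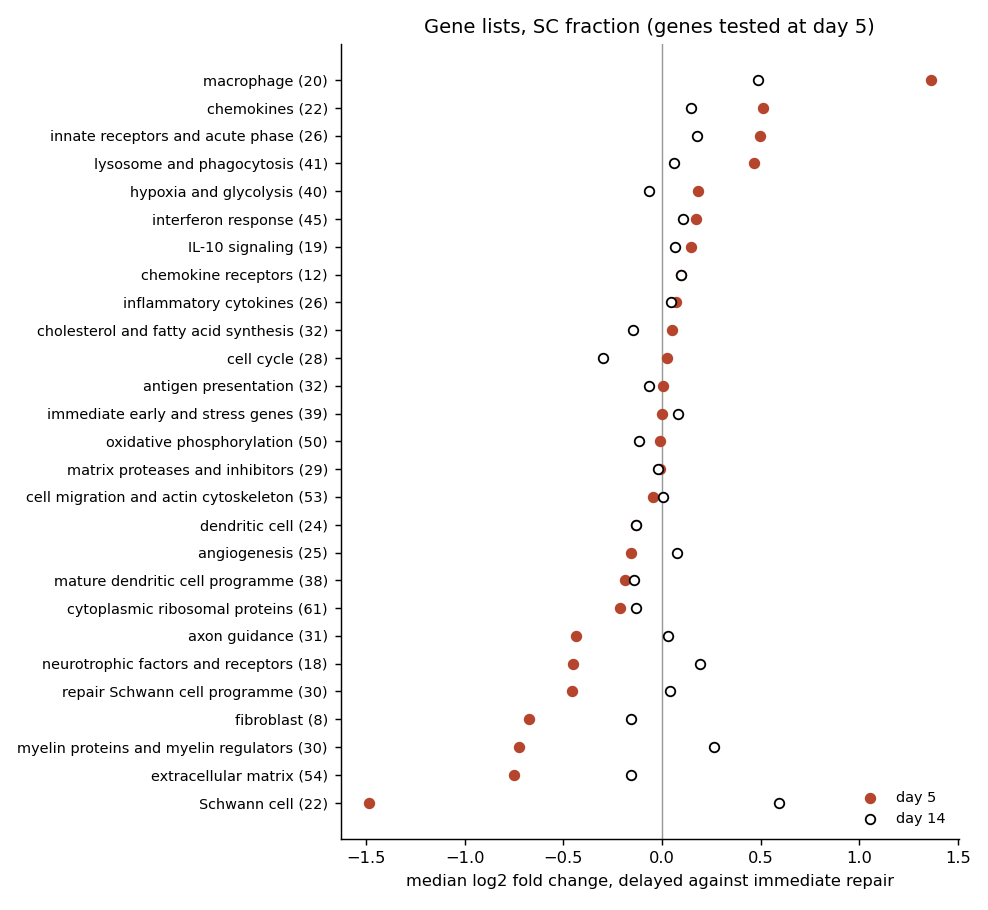
Median log2 fold change of delayed against immediate repair over the tested genes of each list, at day 5 (red) and at day 14 (open), with the number of genes tested at day 5 in parentheses. SC genes have the lowest median at day 5, at -1.49, and a median of 0.60 at day 14.

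Cytokines that the study followed were then read one by one. Il10, an anti-inflammatory cytokine, was detected at 5.40 CPM or more in all 9 delayed libraries, with a median of 17.97 and a highest value of 58.0 CPM. In the immediate group Il10 was at 0 in 3 libraries, at no more than 0.130 CPM in another pair, and at 51.9 and 241 CPM in replicates 5 and 4. Its fitted log2 fold change was -0.79 (SE 1.40, edgeR adjusted p 0.984) and turned to 1.47 without immediate replicate 4, to 6.05 with limma-voom and to 0.96 in females, so its direction depends on that library and on the method. The receptor subunit genes Il10ra (0.31, SE 0.24) and Il10rb (0.35, SE 0.16) and the target Socs3 (0.80, SE 0.35) did not pass. Il6 was at 26.6, 108 and 173 CPM after delayed and 16.7, 55.6 and 199 CPM after immediate repair (0.26, SE 0.49, and 1.14 without immediate replicates 1 and 3), and Il1b at 756, 1178 and 1804 against 628, 1127 and 1614 CPM (0.32, SE 0.21). Tnf was at 23.6, 146 and 410.2 against 16.3, 55.6 and 346 CPM (0.62, SE 0.62, and 1.22 without immediate replicate 5). For all 3 cytokines the groups overlapped.

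Whether the repair difference was the same at day 14 was tested as an interaction over the 16 libraries of day 5 and 15 of day 14 (7 delayed and 8 immediate). With edgeR, 0 of 10923 genes passed after adjustment, 545 (4.99%) had an unadjusted p under 0.05, and DESeq2 called 9. Of the 545, the difference was larger, meaning more toward delayed repair, at day 14 in 389 (3.56% of genes tested) and smaller in 156 (1.43%). Among SC markers it was larger at day 14 in 12 of 23 and smaller in 1, and among myelin genes larger in 15 of 38 and smaller in 0. Without immediate replicates 1 and 3 of day 5 these counts were again 12 of 23 and 15 of 38. The interaction holds the day 5 difference. Of the members tested at day 5, 9 of 22 SC markers and 5 of 30 myelin genes reached 5 CPM in 4 or fewer of the 9 delayed libraries. These counts are therefore a description and support nothing.

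Levels of single SC genes show what this count holds. Pou3f1, a transcription factor of promyelinating SCs, was at 2.84, 5.92 and 24.5 CPM after delayed and 5.45, 19.7 and 51.0 CPM after immediate repair at day 5, and at 20.1, 82.1 and 162 against 11.3, 19.1 and 44.4 CPM at day 14, an interaction of 2.82 (SE 0.71, edgeR adjusted p 0.638). S100b itself had medians of 12.5 CPM after delayed and 7.49 CPM after immediate repair at day 14, and an interaction of 3.87 (SE 1.26). This interaction is a description too, since S100b was below 5 CPM in most delayed libraries of day 5. The SC marker list as a whole had a median log2 fold change of 0.60 at day 14 (16 of 22 higher).

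The smallest interaction p belonged to Pmepa1 (2.35, SE 0.49, unadjusted p 4.11e-05, edgeR adjusted p 0.398). At day 14 it was at 73.8, 135 and 284 CPM after delayed and 69.0, 138 and 180.2 CPM after immediate repair, so the medians of both groups lay above the immediate median of day 5. Serpina3n, an acute phase protease inhibitor, followed with an interaction of 5.18 (SE 1.13). However, at day 5 it reached 5 CPM by library total, the scale of the filter, in only 2 of 9 delayed libraries. Its log2 fold change of -3.64 at day 5 rests in part on immediate replicate 1, at 157 CPM, and was -1.79 without immediate replicates 1 and 3. Ranbp9 (2.17, SE 0.53), Klf9, a glucocorticoid-induced factor (1.92, SE 0.48), and Acvr1 (1.87, SE 0.47) were next.

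Macrophages from the same 16 bridges allowed the repair difference to be set beside that of another fraction of the same animals. Several of the genes above had differences of the same sign there. Cap1 in macrophages had a log2 fold change of 2.18 (SE 0.31, edgeR adjusted p 0.0113), with 45.0, 240.4 and 258 CPM after delayed and 37.4, 45.0 and 48.4 CPM after immediate repair. There, too, the lowest delayed library lay within the immediate range. Qk in macrophages was at -1.48 (SE 0.26, edgeR adjusted p 0.0474), Egln1 at -1.9996 (SE 0.43, adjusted p 0.248), Pmepa1 at -1.50 (SE 0.40, adjusted p 0.451), Ranbp9 at -1.48 (SE 0.33, adjusted p 0.288) and Ptafr at 0.65 (SE 0.18, adjusted p 0.451). The difference between the fractions, as an edgeR interaction, was -0.31 (SE 0.66) for Pmepa1 and -0.19 (SE 0.21) for Cap1. Because the fractions share their animals, they are not independent of each other.

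The difference between the fractions was tested over all genes, and larger means more toward delayed repair in the SC fraction, not groups that lay further apart. Of these genes, 0 of 10074 passed the interaction of repair with cell type in edgeR, 567 (5.63%) had an unadjusted p under 0.05, of which 417 (4.14%) were larger in the SC fraction and 150 (1.49%) smaller, and DESeq2 called 82. Rnf41 had an interaction of 1.08 (SE 0.22, edgeR adjusted p 0.595) and was at -0.09 (SE 0.11) in macrophages. Ccr1 had an interaction of 2.37 (SE 0.51, edgeR adjusted p 0.595) and was at -0.10 (SE 0.12) in macrophages, where its medians were 608 and 646 CPM. The macrophage levels of Ccr1 were above those of every SC fraction library.

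By list, the interaction was larger in the SC fraction in 10 of 23 chemokine genes, 8 of 28 inflammatory cytokine genes, 4 of 14 chemokine receptors, 5 of 19 neurotrophic factors and receptors and 7 of 43 hypoxia and glycolysis genes at an unadjusted p under 0.05, and smaller in 0 of each, beside 4.14% and 1.49% of all genes. Among macrophage markers it was larger in 3 and smaller in 0 of 22, and among SC markers larger in 0 and smaller in 3 of 22, and their part in these counts was not tested. Il6 had an interaction of 1.63 (SE 0.45), since it was at -1.22 (SE 0.35) in macrophages, and for Areg it was 1.65 (SE 0.50). The inflammatory cytokine list had a median of 0.07 in the SC fraction and -0.42 in macrophages, but the first ran from -0.06 (without immediate replicate 7) to 0.22 (without immediate replicate 4) with 1 library left out. The variation between libraries was larger in the SC fraction, as given above, and the fit used 1 spread for both.

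**Figure D5:**
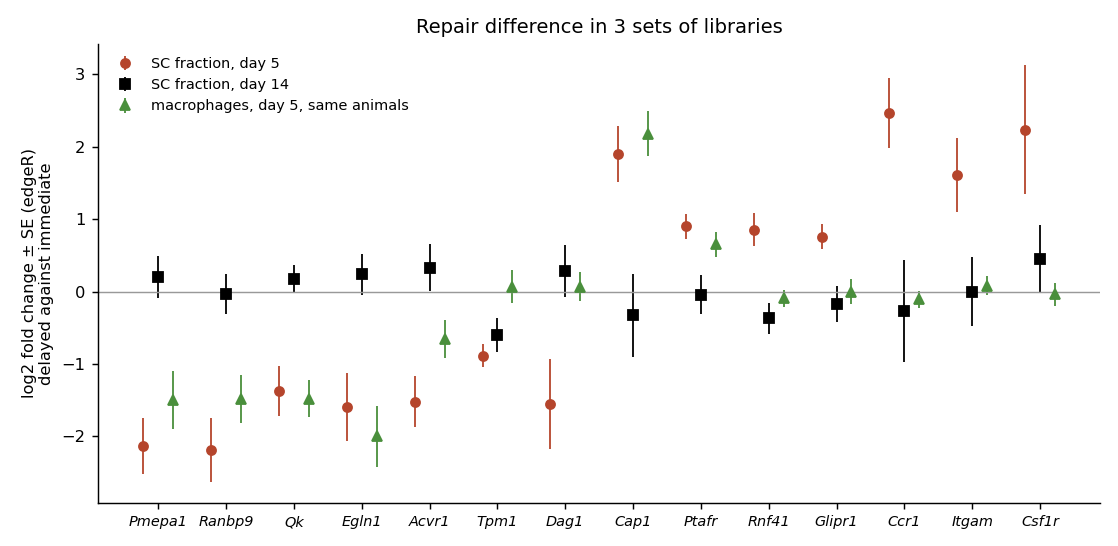
Log2 fold change of delayed against immediate repair with its SE (edgeR) for 14 genes in the SC fraction at day 5, the SC fraction at day 14 and macrophages of the same animals at day 5. Pmepa1, Ranbp9, Qk, Egln1 and Cap1 lie on the same side of 0 in both fractions at day 5, while Ccr1, Rnf41 and Csf1r lie near 0 in macrophages.

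The interaction of repair with sex was tested as well, with 0 of 9604 genes passing in edgeR, 256 (2.67%) at an unadjusted p under 0.05 and 5 called by DESeq2. The smallest edgeR adjusted p was 0.0620, for Nars2, whose product is a mitochondrial tRNA synthetase and which was at 0 CPM in 4 of the 7 immediate libraries. These 4 were all the immediate males, and the immediate females were at 6.81 to 12.2 CPM. With sex as a covariate of the repair comparison, 1 gene passed in edgeR, Tpm1 (-0.92, adjusted p 0.0450). Each library has an animal of its own in the labels, so n counts mice.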

How the data were processed

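The authors trimmed reads with cutadapt 1.8 and aligned them with TopHat2 2.1.1 to mm10, per the labels, which also name Cufflinks 2.2.1 and Cuffnorm. They deposited estimated counts per gene, not normalized. The program that wrote them is not given in the sources used here. Of the values of these 16 libraries, 0.810% were not whole and were rounded. Tables of macrophages and SCs were used, and that of the distal stump was not used here. The study compared groups with cuffdiff, which needs aligned reads.

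Genes at 5 CPM or more in 6 or more of the libraries fitted were kept. Counts were TMM scaled and tested with glmQLFit and glmQLFTest of edgeR 4.0.16 (limma 3.58.1, R 4.3.3), with Benjamini-Hochberg adjustment over all genes tested and a threshold of 0.05. The SE is the log2 fold change over the square root of F. Interactions with day and sex used product terms, and that with cell type a term for each animal. Values per gene are TMM-scaled CPM, and list levels, the filter and counts of libraries that reached 5 CPM use CPM by library total. A count of 0 allows up to 3 counts, which covers counting error only. DESeq2 1.42.0 was an alternative. Further alternatives were library size scaling, other filters, limma-voom, a covariate for sex, a replicate block, one fit of all 4 SC groups, and leaving out each library. Fits without immediate replicates 1 and 3, and within each sex, were chosen after seeing the data. The fit was tested on simulated data.

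Genes were named as the 12 higher and 12 lower with the smallest p, those that DESeq2 called, up to 3 of each list and 5 of each interaction by p, sorting markers, and genes the study names, and not all of these are printed. Sox10, Pou3f1, the dendritic cell genes given as levels and the genes whose groups do not overlap were picked with their values in view. Members and lists were chosen with earlier results of these data known. Positions are RefSeq, GRCm38.p6. Results for some genes are not reported here.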

Additional observations from a re-analysis of the deposited data

Results flagged for a closer look

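In 9 of 136 groups checked, 1 library lay far from the others of its group, and chance alone flags about 1 in 20 groups. Glipr1 was at 42.2 CPM in delayed replicate 5, below the rest of the delayed group. S100b was at 0.630 CPM in immediate replicate 2, and Sema4d, a semaphorin of immune cells, at 0.520 CPM in immediate replicate 3, both below the rest of the immediate group. Il10ra was low, at 30.0 CPM, in immediate replicate 4, the library with the highest Il10. Serpina3n was high, at 157 CPM, in immediate replicate 1.

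Among the marker lists, as means of log2(CPM + 1), skeletal muscle genes were high in immediate replicate 8 (2.13), erythroid genes in delayed replicate 7 (1.83) and immediate replicate 4 (2.17), and keratinocyte genes in immediate replicate 5 (0.836). No member of these lists was tested in the repair comparison of day 5.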

How the results depend on the processing

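Adjusted calls for repair at day 5 stayed at 0 with library size scaling, both other filters, limma-voom, within each sex and without immediate replicates 1 and 3. They came to 505 with an unadjusted p, 14 with DESeq2, 2 with all 4 SC groups in one fit (Pmepa1 and Ranbp9), 1 with sex as a covariate (Tpm1), and 0 to 1 when each library was left out, the 1 being Tpm1 without delayed replicate 5. The count at an unadjusted p was 1971 with no filter, 792 with 4 groups in one fit, 249 in males, 676 in females, and 373 to 630 with each library left out. For the day interaction there were 545 genes at an unadjusted p, 9 with DESeq2 and 0 in every fit that left out a library. For the cell type interaction there were 567, 82 and 0 to 3 (3 without delayed replicate 1), and for sex 256, 5 and 0 to 16 (16 without immediate replicate 2, 1 without delayed replicate 1). The cause of these differences was not tested.

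The log2 fold change of Il10 reversed, to 6.05 with limma-voom, 0.96 in females and 1.47 without immediate replicate 4, with a range of -1.07 to 1.47 over each library left out. With the replicate number as a block over the 7 numbers both groups hold, edgeR called 0 genes and 446 had an unadjusted p under 0.05. The numbers do not pair the animals, since same-numbered libraries correlated at -0.02 to 0.31, above 0.1 in 3 of 7 pairs, and 2 of 7 correlated best with their own number. At 18433741 counts or more, a count of 0 allows up to 3 counts, or at most 0.163 CPM.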

Other observations

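Some genes spread widely between the libraries of one group. Ctsk, a collagen-degrading protease known from osteoclasts and fibroblasts, was at 327 to 1548 CPM in 4 delayed libraries and at 3.22 to 24.4 CPM in the other 5. In the immediate group it was at 245 CPM in replicate 2 and at 2.57 to 23.5 CPM in the other 6. Its log2 fold change was 3.31 (SE 1.39, edgeR adjusted p 0.913). Without immediate replicate 2 it was 5.51. Thbs1, a matrix glycoprotein that platelets and macrophages release, was at 3.88, 342 and 2883 CPM after delayed and 19.1, 109 and 355 CPM after immediate repair (1.91, SE 0.89, edgeR adjusted p 0.913, and 1.20 without delayed replicate 9).

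Gadd45a, a growth arrest gene, was at 16.01, 25.1 and 70.0 CPM after delayed and 12.9, 86.3 and 262 CPM after immediate repair, a log2 fold change of -1.61 (SE 0.53). Itgb2, the β2 integrin of leukocytes, was at 124, 336 and 592 CPM against 51.1, 183 and 276 CPM (1.05, SE 0.34). The edgeR adjusted p was 0.818 for both genes.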
